A study of Mus musculus with 7 samples.

Results

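The genes described here are 10 parts of the signalling chain that the interleukin-6 (IL-6) family of cytokines uses in liver, taken by gene symbol from the 56691 genes counted. They are the receptor chains Il6ra, Il6st (which encodes gp130), Osmr and Lifr, the kinases Jak1 and Jak2, the transcription factor Stat3, and the inhibitors Socs3, Socs1 and Cish. RNA was sequenced from liver of 4 control mice and 3 mice given lipopolysaccharide (LPS), a component of the bacterial outer membrane that provokes a systemic inflammatory response. Every animal was a male of the inbred C57BL/6J strain, bought at 8 weeks of age and kept for 2 weeks before use. The LPS group received 10 mg/kg into the peritoneal cavity and was killed after 24 h, and no injection is described for the control group in the labels. The study kept 6 mice in each group and gives 4 control and 3 LPS mice for its sequencing, the numbers of libraries here. The deposited labels do not say which mouse a library is from, and the p-values below measure the spread between these libraries.

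Libraries of polyadenylated RNA gave total counts of 14991022, 15096573, 15721944 and 18584140 in control replicates 1 to 4 and of 20500391, 17095607 and 17821331 in LPS replicates 1 to 3. Expression is given as CPM, counts scaled to libraries of equal size, after TMM scaling, which sets each library to a common size on the assumption that most genes do not change. The liver label was checked against hepatocyte markers, of which 9 of the 10 listed were found. Alb, which encodes serum albumin, was the most abundant of them at 37776 to 61686 CPM in control libraries and 24642 to 24693 CPM in LPS libraries (log2 fold change of -0.93 ± 0.24 SE with an adjusted p of 0.0137). The call of Alb was lost without LPS replicate 2 (adjusted p of 0.0618) or 3 (0.0641) and with these libraries summed (0.0654). Mitochondrial genes took 23.7%, 14.6%, 7.48% and 8.96% of the counts in control replicates 1 to 4 and 6.45%, 3.83% and 3.94% in LPS replicates 1 to 3. Leaving them out of the library sizes gave the same number of calls in each direction among the 10 genes.

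IL-6, oncostatin M and leukaemia inhibitory factor each bind a receptor chain of their own, which then pairs with gp130 or a relative of it in the membrane. The paired chains bring JAK kinases together, the kinases phosphorylate STAT3, and STAT3 enters the nucleus, where in hepatocytes it drives acute phase genes. Among the genes it switches on is Socs3, whose product binds gp130 and the JAKs and shuts the signal off, while CISH and SOCS2 do the same mainly for growth hormone signalling through STAT5.

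Of the 10 genes, 9 had enough counts to be tested, and 4 of these were higher and 1 was lower in LPS-treated liver at an adjusted p below 0.05. Il6ra, Osmr, Stat3 and Socs3 rose and Lifr fell, while Il6st, Jak1, Jak2 and Cish did not pass the test and Socs1 was not tested. Over all 13683 genes tested, 13.3% were called higher and 13.0% lower. The same 5 genes also changed by more than 1 on the log2 scale, a rule that 7.81% of all genes met upwards and 7.31% downwards. In 5 of the 9 genes every LPS library lay above every control library, as in 18.1% of all genes tested, and in 1 every LPS library lay below, as in 17.4%. The median log2 fold change of the 9 genes was 0.41, against -0.01 over all genes tested. With total counts in place of TMM scaling the median of all genes moved by -0.12 and 39.6% of all calls were rises, against 50.7% with TMM, and the calls of the 9 genes were as many in each direction. Bulk RNA cannot tell fewer cells of a type from less RNA per cell, which holds for every gene below.

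**Figure D1:**
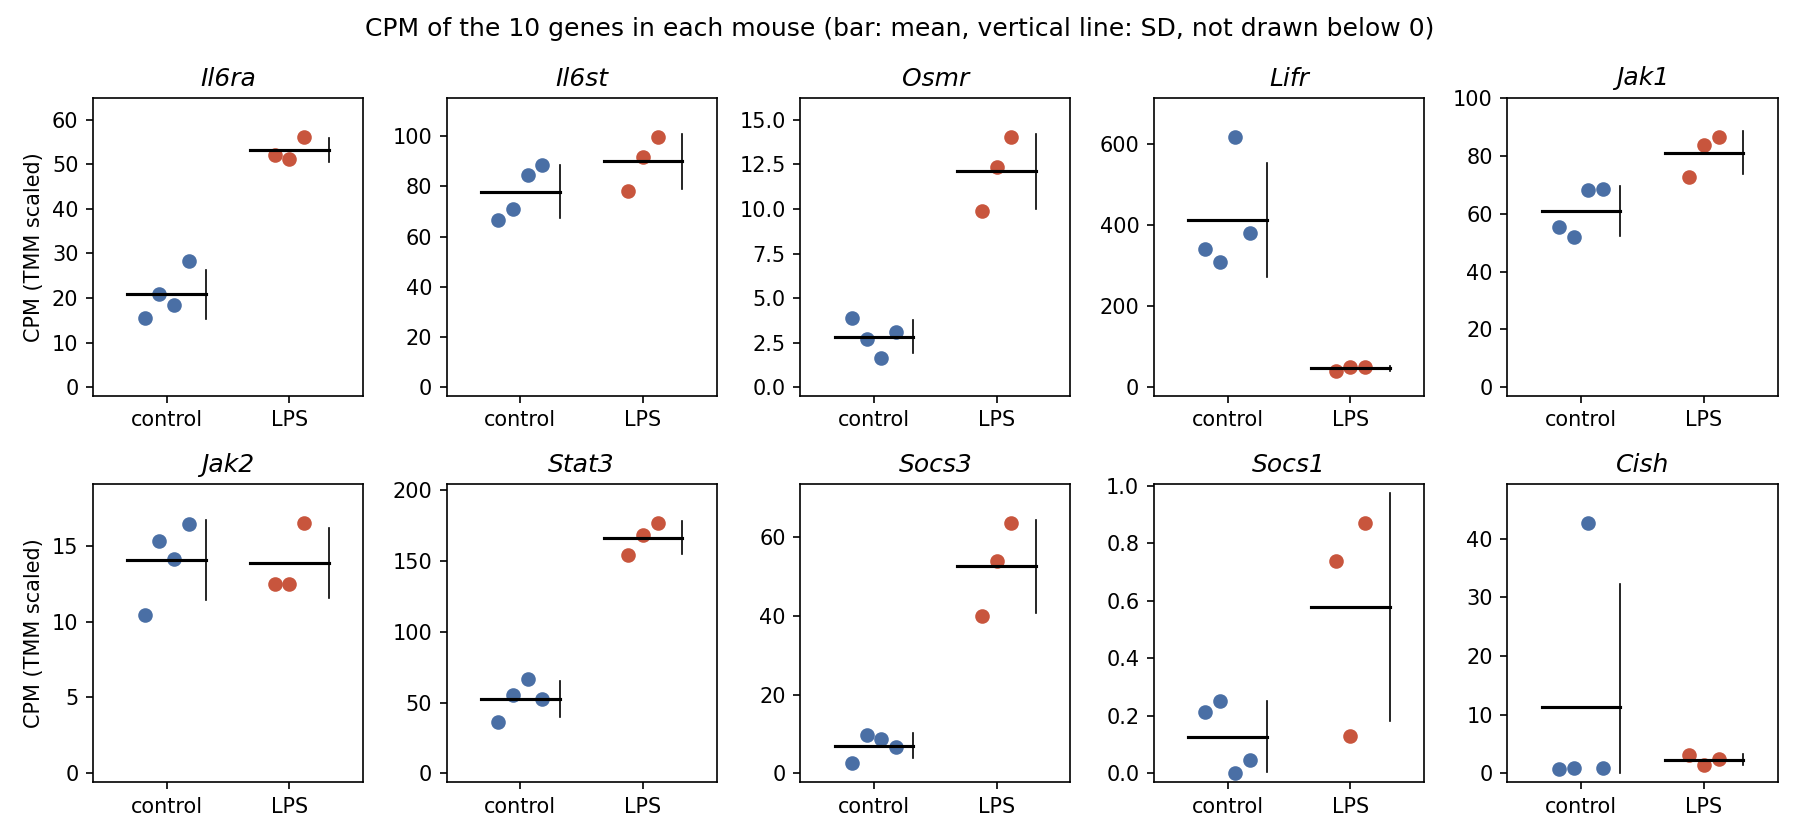
CPM of each of the 10 genes (vertical axis, linear and starting at 0) in the 4 control and 3 LPS libraries, with 1 point per library, a bar at the group mean and a vertical line for the SD. LPS points lie above all control points for Il6ra, Osmr, Jak1, Stat3 and Socs3 and below them for Lifr, and control replicate 3 stands alone for Cish at 42.7 CPM.

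Il6ra encodes the chain that binds IL-6 and decides which cells can answer it directly. Il6ra had 15.6, 21.0, 18.5 and 28.2 CPM in control replicates 1 to 4 and 52.1, 51.2 and 56.2 CPM in LPS replicates 1 to 3. Every LPS library was above the highest control library, and the LPS libraries differed little from each other. The log2 fold change was 1.35 ± 0.18 (SE, 4 against 3 libraries), a level 2.55-fold higher, with an adjusted p of 0.000163 from edgeR's quasi-likelihood test with Benjamini-Hochberg adjustment, which is the test used for every gene below.

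Il6st encodes gp130, the chain shared by most receptors of the family, which carries the signal into the cell. Il6st had 66.8, 70.9, 84.6 and 88.7 CPM in control replicates 1 to 4 and 78.3, 91.9 and 99.9 CPM in LPS replicates 1 to 3. The groups overlapped, with the lowest LPS library below the highest pair of control libraries. Its log2 fold change was 0.21 ± 0.15 (SE) with an adjusted p of 0.347, and it did not pass the test under any alternative processing run, where the adjusted p ranged from 0.202 to 0.802.

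Osmr encodes the chain that joins gp130 in the receptor for oncostatin M. Osmr had 3.89, 2.71, 1.65 and 3.10 CPM in control replicates 1 to 4 and 9.91, 12.4 and 14.1 CPM in LPS replicates 1 to 3. The groups did not overlap. Its log2 fold change was 2.09 ± 0.28 (SE), 4.26-fold higher, with an adjusted p of 0.000138.

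Lifr encodes the chain that joins gp130 in the receptor for leukaemia inhibitory factor, and in mice it stands beside the oncostatin M receptor in the same small family. Lifr had 340, 309.6, 619 and 381 CPM in control replicates 1 to 4 and 39.4, 51.1 and 50.6 CPM in LPS replicates 1 to 3. The highest LPS library was far under the lowest control library, and control replicate 3 stood above the other controls. Lifr was thus 8.78-fold lower, a log2 fold change of -3.13 ± 0.25 (SE), with an adjusted p of 1.76e-06. Without control replicate 3 it was -2.87 ± 0.17 (SE).

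Jak1 and Jak2 encode tyrosine kinases that sit on the inner ends of the receptor chains, and Jak1 is the main kinase of gp130. Jak1 had 55.5, 51.9, 68.4 and 68.5 CPM in control replicates 1 to 4 and 72.7, 83.8 and 86.8 CPM in LPS replicates 1 to 3. The LPS libraries were all above the control libraries, by a small margin. The log2 fold change of Jak1 was 0.41 ± 0.15 (SE) with an adjusted p of 0.0612, which did not pass. Without control replicate 3 the adjusted p of Jak1 was 0.0375, with the replicate number as a block it was 0.0497, and over all alternatives it ran from 0.0375 to 0.269.

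For Jak2 the control replicates 1 to 4 had 10.4, 15.3, 14.1 and 16.4 CPM and the LPS replicates 1 to 3 had 12.5, 12.5 and 16.5 CPM. The ranges of the groups covered nearly the same span. The log2 fold change of Jak2 was -0.03 ± 0.20 (SE, adjusted p of 0.941), and its sign changed in some of the alternatives, so that no direction can be given.

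Stat3 encodes the transcription factor that the kinases activate, and it is itself among the genes that STAT3 switches on. Stat3 had 36.2, 55.2, 66.9 and 52.9 CPM in control replicates 1 to 4 and 154, 168 and 177 CPM in LPS replicates 1 to 3. No LPS library came near the control range. Stat3 was thus 3.15-fold higher, a log2 fold change of 1.66 ± 0.18 (SE), with an adjusted p of 2.98e-05. These are amounts of mRNA, and the phosphorylated protein that acts in the nucleus was not measured here.

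Socs3 encodes the inhibitor that STAT3 induces and that blocks gp130 signalling in return. Socs3 had 2.69, 9.85, 8.80 and 6.77 CPM in control replicates 1 to 4 and 40.1, 54.1 and 63.7 CPM in LPS replicates 1 to 3. Control replicate 1 was the lowest library and the groups lay far apart. Its log2 fold change was 2.90 ± 0.32 (SE), 7.45-fold higher, with an adjusted p of 2.61e-05, and it ranked at percentile 98.0 of the log2 fold changes of all genes tested.

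Socs1 encodes an inhibitor that acts on the JAKs directly, mainly after interferon signals. The gene was near the limit of detection, with 3, 4, 0 and 1 counts in control replicates 1 to 4 and 16, 2 and 14 counts in LPS replicates 1 to 3. LPS replicates 1 and 3 were above all controls, and LPS replicate 2 was within the control range and under the floor of 3 counts. The filter on low counts removed Socs1. Where the filter was left out it had a log2 fold change of 2.17 ± 1.18 (SE) with an adjusted p of 0.228, so no difference was detectable at this depth.

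Cish encodes the SOCS family member that growth hormone and other STAT5 signals induce. Cish had 11, 16, 699 and 20 counts in control replicates 1 to 4 and 69, 22 and 40 counts in LPS replicates 1 to 3, or 0.778, 1.01, 42.7 and 0.968 CPM against 3.18, 1.42 and 2.49 CPM. A single control library, replicate 3, held nearly all the reads of the control group. The LPS libraries lay above the other controls and below that library. The log2 fold change was -2.25 ± 1.20 (SE) with an adjusted p of 0.196. Without control replicate 3 the sign turned to 1.36 ± 0.49 (SE) with an adjusted p of 0.0582, which did not pass. With no filter on low counts the fall in Cish had an adjusted p of 1.65e-13, and over the alternatives that gave a value it ran from there to 0.623. The level of Cish in these groups therefore rests on a single library, and no direction can be given.

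Ratios of counts within a library do not depend on how libraries are scaled, so 4 ratios of the genes were compared between the groups with an exact two-sided permutation test and Benjamini-Hochberg adjustment over the 4, for which 0.0286 is the smallest p that 4 against 3 libraries can give. The log2 ratio of Osmr to Lifr was -6.44, -6.82, -8.53 and -6.93 in control replicates 1 to 4 and -1.99, -2.04 and -1.84 in LPS replicates 1 to 3. It was higher with LPS by 5.22 in the mean. Since Osmr lay above and Lifr below the controls in every LPS library, the separation of this ratio was given by their own values, and its exact p is no further support.

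The log2 ratio of Il6ra to Il6st was -1.92 ± 0.26 in control and -0.75 ± 0.14 in LPS libraries (mean ± SD, n = 4 and 3, exact p = 0.0286, adjusted p = 0.0381). The rise of Il6ra was larger than the whole spread of Il6st allowed the ratio to hide. The separation of this ratio was thus also given by the values of the single genes, and its exact p is no further support. Socs3 rose by more than Stat3, and their log2 ratio was -3.02 ± 0.52 in control and -1.68 ± 0.24 in LPS libraries (mean ± SD, n = 4 and 3, exact p = 0.0286, adjusted p = 0.0381). In both ratios all 3 LPS libraries were above all 4 control libraries. The log2 ratio of Socs3 to Cish was 1.74, 3.25, -2.28 and 2.78 in control replicates 1 to 4 and 3.65, 5.22 and 4.66 in LPS replicates 1 to 3. Its mean difference of 3.14 had an exact p of 0.0857, also 0.0857 after adjustment, and fell to 1.92 without control replicate 3.

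**Figure D2:**
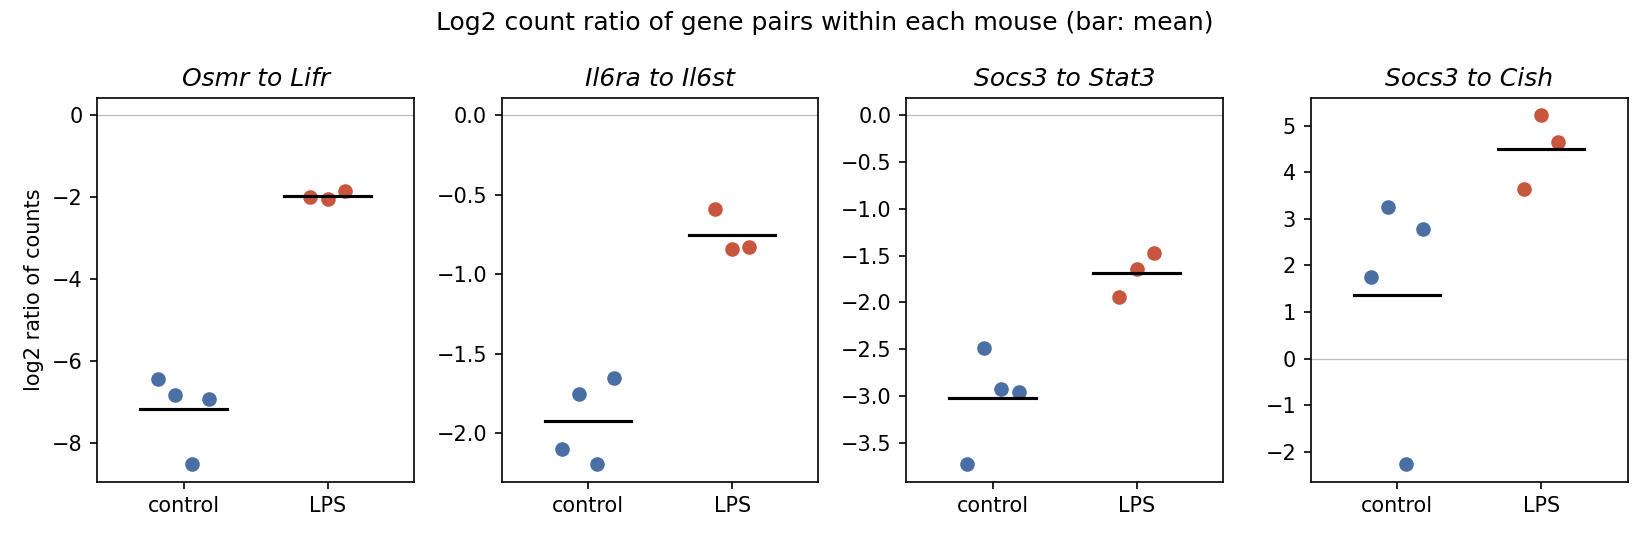
Log2 ratio of counts (vertical axis, with 0.5 counts added to each gene) for 4 pairs of genes in each control and LPS library, with a bar at the group mean. The LPS points lie above the control points in each pair, and control replicate 3 is the lowest point for Osmr to Lifr, at -8.53, and for Socs3 to Cish, at -2.28.

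Levels of different genes were set side by side only per length, as CPM per kilobase of merged exons, with lengths from another annotation release than the one used for counting. In control liver Lifr stood first with a mean of 38.3 CPM per kilobase, followed by Jak1 with 8.45, Il6st with 7.01 and Stat3 with 5.54. On this scale the control libraries of Il6st overlapped with those of Jak1 and with those of Stat3. Jak2, Socs3 and Il6ra followed with means of 2.79, 2.43 and 2.41 CPM per kilobase and overlapped with each other. Cish had 1.77 with nearly all of it from control replicate 3, Osmr had 0.234 and Socs1 had 0.0441 CPM per kilobase.

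The order was different in LPS-treated liver. Socs3 and Stat3 stood first with 18.2 and 17.5 CPM per kilobase, and their libraries overlapped. Jak1 followed with 11.2, Il6st with 8.11, Il6ra with 6.15, Lifr with 4.36 and Jak2 with 2.75 CPM per kilobase, and no neighbours among these overlapped. Osmr had 1.00, Cish 0.368 and Socs1 0.199 CPM per kilobase. Among the receptor chains Lifr thus went from the highest mean per kilobase to a place under Il6st and Il6ra, and Osmr was the lowest in both groups.

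Of the 12 ligands of the family on the list, 3 had enough counts to be tested and 1 was called higher, beside 13.3% of all genes tested. Il6, the cytokine itself, had 0, 7, 0 and 0 counts in control replicates 1 to 4 and 11, 9 and 10 counts in LPS replicates 1 to 3, so the groups did not overlap but the gene was not tested. Osm, which encodes oncostatin M, had no counts in the control libraries and 2, 17 and 6 counts in LPS replicates 1 to 3. Neither passed the filter on low counts.

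Ebi3, a subunit shared by IL-27 and IL-35, was the ligand gene called higher. It passed the filter on low counts only through the LPS libraries, so a gene like it had to differ to be tested at all, and its call is not counted as support. Ebi3 had 0, 4, 5 and 2 counts in control replicates 1 to 4 and 29, 11 and 14 counts in LPS replicates 1 to 3, a difference of 2.52 ± 0.78 on the log2 scale (SE, adjusted p of 0.0311). This call was lost without control replicate 4 (adjusted p of 0.0702), without LPS replicate 2 (0.0690) or 3 (0.0823), without LPS replicate 1 (0.1201), with LPS replicates 2 and 3 summed (0.0702) and with a replicate block (0.133).

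The other ligand genes gave no call. Ctf1, which encodes cardiotrophin-1, and Clcf1 were tested, with log2 fold changes of 0.45 ± 0.37 and -0.24 ± 0.47 (SE) and adjusted p of 0.408 and 0.752. Lif had at most 4 counts in a control library and 2, 2 and 11 counts in LPS replicates 1 to 3. Il11 had 1 count in all, Ctf2 had 1 count in each of control replicates 2 and 4, and Il27 had 5 counts in control replicate 2 and 3 in LPS replicate 3. Cntf had between 4 and 17 counts per library with overlapping groups, and Il31 had no counts.

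Of 4 other receptor genes of the family, 2 were tested. Il11ra1, the chain that binds IL-11, had 29.7, 27.8, 21.1 and 25.8 CPM in control replicates 1 to 4 and 15.8, 20.6 and 18.0 CPM in LPS replicates 1 to 3. The groups did not overlap, and the log2 fold change of -0.53 ± 0.17 (SE) had an adjusted p of 0.0337. That call was lost without any of the other libraries than control replicate 3 (adjusted p of up to 0.124), with a replicate block (0.0648) and with LPS replicates 2 and 3 summed (0.0753). Il27ra, a receptor for IL-27, had a log2 fold change of -1.34 ± 0.72 (SE) and an adjusted p of 0.195. Cntfr had between 0 and 18 counts per library and Il31ra 2 counts in all.

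Of 17 cytokine receptors outside the family that also signal through JAKs, 16 were tested, 7 were higher and 2 were lower, where 13.3% and 13.0% of all genes tested were. Their median log2 fold change was 0.55. The falls were in Prlr and Ghr. Prlr, the prolactin receptor, had 78.8, 84.9, 91.7 and 86.1 CPM in control replicates 1 to 4 and 17.5, 13.5 and 11.3 CPM in LPS replicates 1 to 3 (log2 fold change of -2.60 ± 0.17 SE, adjusted p of 3.67e-07). Ghr, the growth hormone receptor, went from 678 ± 66.4 to 235 ± 11.2 CPM (mean ± SD, n = 4 and 3), or -1.53 ± 0.15 on the log2 scale (SE, adjusted p of 9.12e-06).

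Among the rises, Il13ra1, a chain of the receptors for IL-4 and IL-13, went from 36.7 ± 5.49 to 88.1 ± 15.3 CPM (mean ± SD, n = 4 and 3), or 1.26 ± 0.17 on the log2 scale (SE, adjusted p of 0.000129). Csf2rb, the signalling chain of the receptors for GM-CSF and IL-3, is a gene of myeloid cells and went from 4.89 ± 0.891 to 16.1 ± 3.21 CPM, or 1.72 ± 0.21 on the log2 scale (SE, adjusted p of 7.76e-05). Reads of Csf2rb may be shared with its close copy Csf2rb2, so its level is uncertain.

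Among 8 other JAK and STAT genes, 7 were tested, 1 was higher and 2 were lower, beside 13.3% and 13.0% of all genes tested, with a median log2 fold change of -0.08. Jak3, a kinase of blood cells, had 5.52, 4.54, 1.53 and 2.18 CPM in control replicates 1 to 4 and 14.0, 11.1 and 7.84 CPM in LPS replicates 1 to 3, a rise of 1.69 ± 0.38 on the log2 scale (SE, adjusted p of 0.00607). Stat5b, the main transcription factor of growth hormone in liver, had 58.5, 53.2, 57.8 and 52.8 CPM in control replicates 1 to 4 and 26.3, 27.2 and 26.1 CPM in LPS replicates 1 to 3. Its log2 fold change was -1.07 ± 0.13 (SE, adjusted p of 6.56e-05), the opposite direction to Stat3.

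Stat5a, the close relative of Stat5b, was lower as well, with a log2 fold change of -0.71 ± 0.22 (SE) and an adjusted p of 0.0316. The call of Stat5a was lost without control replicate 1 (adjusted p of 0.0692) or 4 (0.0817), without LPS replicate 1 (0.0922), 2 (0.0702) or 3 (0.0922), with a replicate block (0.102) and with LPS replicates 2 and 3 summed (0.0772). Tyk2, another kinase that binds gp130, had a log2 fold change of -0.39 ± 0.20 (SE) with an adjusted p of 0.176.

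The list of 15 other inhibitors, the remaining SOCS genes, the PIAS proteins, phosphatases and adaptors, held 3 rises and 1 fall, beside 13.3% and 13.0% of all genes tested, with a median log2 fold change of 0.21. The 3 rises were in genes of phosphatases, while Ptpn11, another phosphatase gene of the list, named after its values were seen, did not pass (log2 fold change of 0.21 and adjusted p of 0.387). Ptpn1 rose by 1.41 ± 0.17, Ptpn2 by 1.14 ± 0.15 and Ptpn6 by 1.05 ± 0.18 on the log2 scale (SE, adjusted p of 5.65e-05, 9.45e-05 and 0.000937). Ptpn6 encodes SHP-1, which is most abundant in blood cells.

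The fall was in Socs2, the STAT5-induced inhibitor of growth hormone signalling. Socs2 had 22.1, 18.2, 91.3 and 19.1 CPM in control replicates 1 to 4 and 1.43, 3.35 and 1.93 CPM in LPS replicates 1 to 3. Control replicate 3 was far above the other controls, as for Cish, and every LPS library was below every control library. The log2 fold change was -4.10 ± 0.63 (SE, adjusted p of 0.000392), and without control replicate 3 it was -3.17 ± 0.28 (SE, adjusted p of 5.50e-06). Within the SOCS family Socs3 and Socs2 thus moved in opposite directions. Socs4, Socs5, Socs6 and Socs7, named here after their values were seen, passed the test in neither direction, Cish has no settled direction and Socs1 was not tested.

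**Figure D3:**
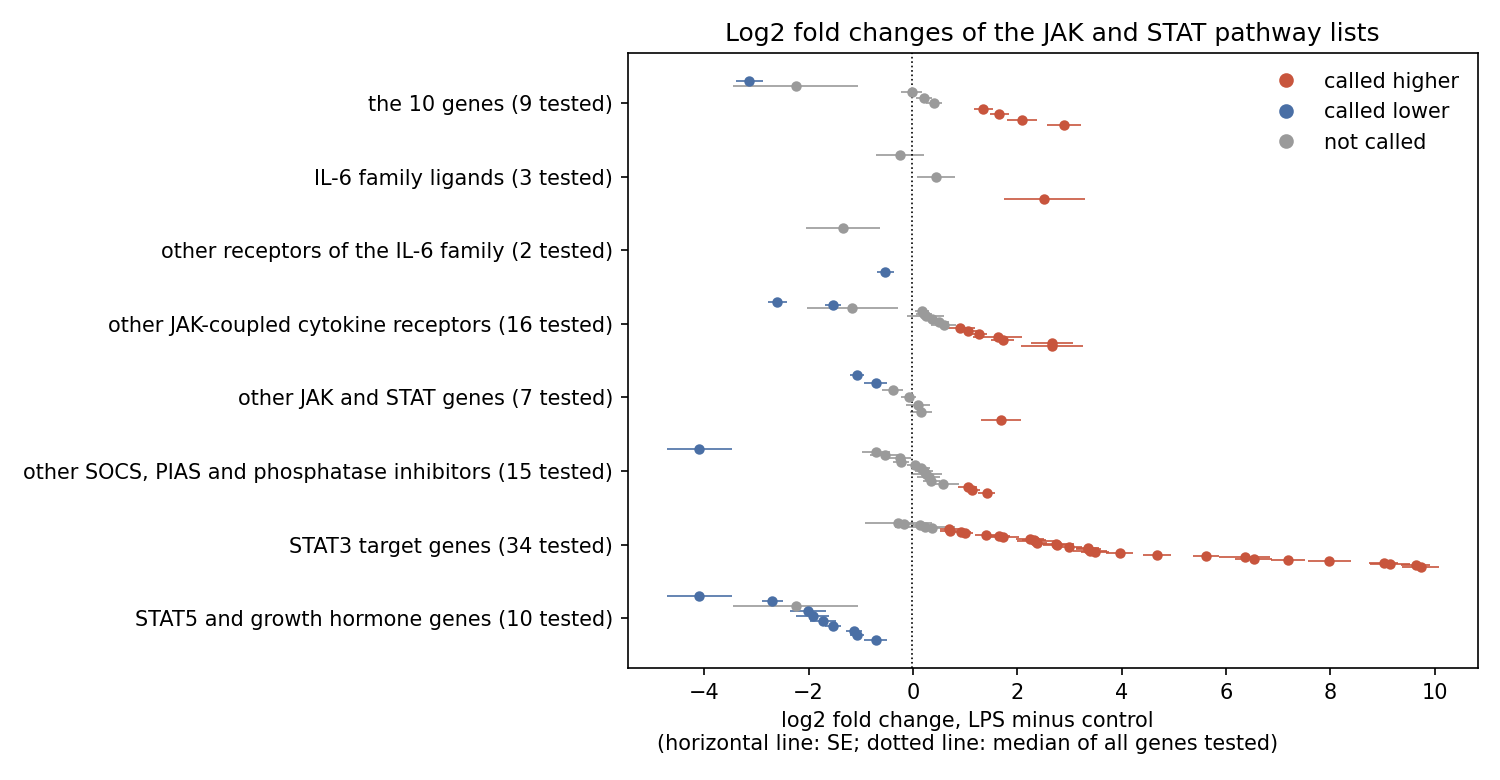
Log2 fold change of LPS against control (horizontal axis) for every tested gene of each pathway list, with the SE as a horizontal line and the median of all genes tested, -0.01, as a dotted line. Of the STAT3 target genes 29 are called higher and none lower, and of the STAT5 and growth hormone genes 9 are called lower and none higher. Of all genes tested, 13.3% are called higher and 13.0% lower.

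Of the 34 genes listed as targets of STAT3 in liver, most of them acute phase genes, 29 were higher and 0 were lower. Over all genes tested, 13.3% were called higher and 13.0% lower. Timp1, among the rises, passed the filter on low counts only through the LPS libraries. The median log2 fold change of the 34 genes was 2.75, against -0.01 over all genes tested. A2m, the protease inhibitor alpha-2-macroglobulin, had 2.12, 1.20, 1.65 and 0.774 CPM in control replicates 1 to 4 and 636, 786 and 776 CPM in LPS replicates 1 to 3. Its log2 fold change was 9.02 ± 0.28 (SE, adjusted p of 5.84e-10). Lcn2, which encodes the iron-withholding protein lipocalin-2, and the serum amyloid genes Saa3 and Saa2 were the other genes of the list with the smallest p, at 9.73 ± 0.35, 9.64 ± 0.28 and 9.15 ± 0.38 (log2 fold change ± SE). Reads of Saa2 may be shared with its near-identical copy Saa1.

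The 5 targets that did not pass the test, named after their values were seen, were Fos, Mcl1, Myc, Hamp and Il4ra. Hamp encodes hepcidin, the hormone that limits iron uptake, and is a well-known target of IL-6 in hepatocytes. Hamp had 615, 816, 489 and 521 CPM in control replicates 1 to 4 and 458, 581 and 589 CPM in LPS replicates 1 to 3, with overlapping groups and a difference of -0.17 ± 0.19 on the log2 scale (SE, adjusted p of 0.572). Many of these targets answer other inflammatory signals as well, and which signal moved them was not tested.

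The 10 genes of growth hormone signalling through STAT5, a list that shares Ghr, Stat5a, Stat5b, Socs2 and Cish with those above, held 9 falls and no rise. Over all genes tested, 13.0% were called lower and 13.3% higher. The median log2 fold change of the list was -1.82. The list does not sort its genes by whether STAT5 raises or lowers them, so these falls do not give the activity of the pathway. Igf1, the growth factor that the liver releases in answer to growth hormone, went from 715 ± 87.0 to 326 ± 12.4 CPM (mean ± SD, n = 4 and 3), or -1.13 ± 0.15 on the log2 scale (SE, adjusted p of 0.000139). Igfals, the binding partner that keeps IGF1 in the circulation, had 38.0, 41.8, 59.1 and 36.9 CPM in control replicates 1 to 4 and 6.45, 6.64 and 7.22 CPM in LPS replicates 1 to 3. Its log2 fold change was -2.70 ± 0.20 (SE, adjusted p of 8.74e-07). Cish was the gene of the list that did not pass.

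Several of the genes are also expressed by cells other than hepatocytes, so marker lists of liver cell types were counted, and their part in the result was not tested. Markers of a list were ranked by CPM without regard to gene length. Of 12 neutrophil markers 8 were tested and called higher, beside 13.3% of all genes tested. But all of these 8 markers except S100a9 passed the filter on low counts only through the LPS libraries and had to differ. The number called is therefore no support. The other 4, Ly6g, Mpo, Elane and Camp, were not tested. The summed level of all 12 markers was 2.90, 2.97, 1.53 and 2.56 CPM in control replicates 1 to 4 and 211, 158 and 158 CPM in LPS replicates 1 to 3. S100a9 was the most abundant of them at 82.9 ± 17.2 CPM (SD, n = 3) in LPS libraries. Ngp was at least 84.8-fold higher with LPS than a floor of 3 counts per library, since no control library held a read of it. Ly6g and Mpo also had no counts in the control libraries, and they had 7, 0 and 1 and 0, 1 and 0 counts in LPS replicates 1 to 3. Elane had 0, 8, 6 and 0 counts in control replicates 1 to 4 and 3, 2 and 6 in LPS replicates 1 to 3, and Camp had 1, 0, 2 and 0 against 7, 1 and 3, with overlapping groups for both.

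Of 10 Kupffer cell and macrophage markers 4 were higher and 1 was lower, beside 13.3% and 13.0% of all genes tested. The summed level of the 10 markers was 140, 206, 193 and 126 CPM in control replicates 1 to 4 and 708, 188 and 192 CPM in LPS replicates 1 to 3. LPS replicate 1 thus stood apart. Marco, a scavenger receptor, had the highest mean over all 7 libraries through LPS replicate 1, while Clec4f led in control libraries and Lyz2 was above it in LPS replicates 2 and 3. Marco had 409.7, 66.5 and 65.6 CPM in LPS replicates 1 to 3, and its log2 fold change of 5.62 was 4.17 without LPS replicate 1. The 4 rises were in Marco, Adgre1, Cd68 and Lyz2, and the fall was in Clec4f. Clec4f had 47.5, 69.9, 56.9 and 43.4 CPM in control and 24.1, 5.48 and 7.28 CPM in LPS libraries. Cd5l, Vsig4 and Timd4 were not called, but lay below every control library in LPS replicates 2 and 3, though not in LPS replicate 1. Csf1r and Cd163, also not called, lay within the control range in LPS replicates 2 and 3. All but Marco were named after their values were seen. Without LPS replicate 1 the calls of Il6ra, Osmr, Stat3, Socs3 and Lifr were as in all libraries, with 4 genes higher and 1 lower.

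Lymphocyte markers summed to 8.14, 8.14, 6.17 and 4.55 CPM in control replicates 1 to 4 and 3.41, 1.997 and 3.30 CPM in LPS replicates 1 to 3. Of 4 tested, 2 were lower and none higher, beside 13.0% and 13.3% of all genes tested. All 4 passed the filter only through the control libraries, so genes like them had to differ to be tested. Their calls, that of Cd4 included, are not counted as support. Cd4 had the highest mean over all 7 libraries and led in control libraries only, at 2.12, 2.46, 2.02 and 1.94 CPM in control replicates 1 to 4 and 0.323, 0.451 and 0 CPM in LPS replicates 1 to 3 (adjusted p of 0.00747). Klrb1c, a marker of natural killer cells named after its values were seen, was not tested and had 1, 5, 0 and 9 counts in control replicates 1 to 4 and 28, 8 and 14 counts in LPS replicates 1 to 3. Its CPM was higher in every LPS library than in every control library. Nkg7 and Ncr1, other natural killer cell genes of the list, were not tested either, and their groups overlapped. Nkg7 had 9, 7, 2 and 4 counts in control replicates 1 to 4 and 6, 4 and 17 in LPS replicates 1 to 3. Ncr1 had 1, 0, 4 and 0 against 2, 5 and 0 counts. No direction can thus be given for these cells. Of 8 sinusoidal endothelium markers 2 were higher and 2 lower, beside 13.3% and 13.0% of all genes tested. Clec4g, among the falls, passed the filter on low counts only through the control libraries, and its call is not counted as support. The summed level of the 8 markers was 134, 166, 101 and 137 CPM in control replicates 1 to 4 and 175, 98.6 and 95.6 CPM in LPS replicates 1 to 3. Stab2 had the highest mean over all 7 libraries but in neither group alone, where Clec4g led in control and Pecam1 in LPS libraries.

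Stellate cell markers, led by Dcn, summed to 480, 328, 207 and 322 CPM in control replicates 1 to 4 and 304, 262 and 248 CPM in LPS replicates 1 to 3. Of these 8 markers 2 were lower and none higher, beside 13.0% and 13.3% of all genes tested. Cholangiocyte markers, led by Spp1, summed to 262, 108, 72.2 and 116 CPM in control and 137, 165 and 158 CPM in LPS libraries. Of these 5 markers 1 was higher, beside 13.3% of all genes tested. Hepatocyte markers summed to 65895, 63980, 89292 and 76815 CPM in control replicates 1 to 4 and 43660, 48646 and 48994 CPM in LPS replicates 1 to 3. Of the 9 markers 2 were higher and 3 lower, beside 13.3% and 13.0% of all genes tested. The sum is carried mainly by Alb, and the median log2 fold change of the 9 markers was 0.000413. In 3 of the 9 every LPS library was above every control library, as in 18.1% of all genes tested. In another 3 every LPS library was below every control library, as in 17.4% of all genes tested.

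The genes whose log2 CPM followed Stat3 most closely over the 7 libraries were Zmat3, Cyp3a13 and Dnaja3, with Pearson r of 0.998, 0.996 and 0.994. For Socs3 they were Ldha, which encodes a subunit of lactate dehydrogenase, Zfp870 and Hmox2, with r of 0.993, 0.991 and 0.991. Such values describe a likeness that the difference between the groups largely sets. For Cish they were Pacsin2, Zfp655 and 1700018L02Rik, with r of 0.988, 0.981 and 0.971, and without control replicate 3, over 6 libraries, 0.908, 0.900 and 0.914.

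Because STAT factors bind a palindromic DNA element, the letters TTCNNNGAA, which read the same on both strands, were searched in the RefSeq promoter windows of the mouse build GRCm38.p6, 250 bases before to 50 bases after each start. All 10 genes had an entry. The 250 bases before the start held the letters in 7.02% of all 32851 promoters and in at least 1 promoter of 8.13% of all genes, and among the 10 genes in Socs3. This window of Socs3, which had the largest rise of the 10 genes, is shown because it held the letters. It lies on the minus strand at chr11:117969367-117969616, with the match in capitals:
Socs3: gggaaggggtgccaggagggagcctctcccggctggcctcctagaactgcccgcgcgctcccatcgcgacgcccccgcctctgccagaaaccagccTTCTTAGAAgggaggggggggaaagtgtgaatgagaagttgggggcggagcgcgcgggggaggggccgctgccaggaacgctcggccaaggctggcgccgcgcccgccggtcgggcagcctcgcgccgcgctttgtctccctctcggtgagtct

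Cish held the letters at 2 places just after its start, in a stretch of 20 bases on the plus strand at chr9:107296659-107296678. Of the 10 genes, Cish varied most between control libraries relative to its mean. The stretch is shown because it held the letters, with the matches in capitals:
Cish: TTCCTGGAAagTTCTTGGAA

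Of the listed STAT3 targets 27 had an entry and 6 of these, or 22.2%, held the letters before the start, against 8.13% of all genes, a difference that was not tested. Shares of the other lists ran from 0, in 9 lists of 3 to 11 genes with an entry, to 33.3%, or 1 of 3 other receptors of the IL-6 family. They were 25.0% of 8 STAT5 and growth hormone genes, 28.6% of 7 lymphocyte markers and 15.4% of 13 other JAK-coupled receptors. None of these shares was tested. Of the 6 targets, Steap4, Fga, Fgb, Apcs and Itih4 were called higher and 1 did not pass the test. The short windows of Fga (plus strand, chr3:83025911-83025935) and Steap4 (plus strand, chr5:7960348-7960372) are given, with the match in capitals, as examples of targets that rose:
Fga: gcccccatTTCCTGGAAtgtagatt
Steap4: ttgaactcTTCCCGGAAactttgct
Fga, a fibrinogen chain, and Steap4, a metal reductase, had log2 fold changes of 2.74 ± 0.34 and 3.49 ± 0.27 (SE). A match of letters is a description and not a site of binding.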

How the data were processed

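Counts for 56691 genes in 7 libraries were taken as the authors deposited them, not normalized. The submitters' processing notes name cutadapt 1.9.1, HISAT2 2.2.1, HTSeq 0.6.1 and DESeq2 1.34.0 and the build GRCm39. The annotation release, the strand setting and the handling of multi-mapping reads are not given in the sources used here. Mice given sulforaphane were not analysed here.

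In R 4.3.3 with edgeR 4.0.16, filterByExpr set the low-count limit, TMM gave the library factors, and a quasi-likelihood F test of treatment alone gave each p, adjusted by Benjamini-Hochberg over 13683 genes. SE values are the absolute log2 fold change over the square root of F. The floor of 3 counts corresponds to between 0.138 and 0.212 CPM and covers counting error only. Exon lengths came from GENCODE M21 on GRCm38. The code was tested on simulated data. Alternatives were DESeq2 1.42.0, other scalings and filters, stricter thresholds, the replicate number as a block, each library left out, and LPS replicates 2 and 3 summed.

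The 10 genes and the other lists were chosen with earlier results of these data known. Named are the 10 genes, ligands and other receptors of the family, in each further pathway list the 4 of smallest p and the 2 lowest called, in each marker list the gene of highest mean over all libraries and any at 0 in a group, and for Stat3, Socs3 and Cish the 3 genes most correlated with them.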

Additional observations from a re-analysis of the deposited data

Results flagged for a closer look

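Of 61 values tested for a control library far from the other controls (Dixon's ratio of gap to range beyond its 0.05 limit), 3 stood out, and chance alone gives about 1 in 20. Cish was at 42.7 CPM in control replicate 3, while the other controls lay between 0.778 and 1.01 CPM. Socs2 was at 91.3 CPM in the same library, with the other controls between 18.2 and 22.1 CPM. The summed level of the other SOCS, PIAS and phosphatase inhibitors, which includes Socs2, was 303 CPM there, with the other controls between 203 and 213 CPM. The LPS group, with 3 libraries, was not tested in this way.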

How the results depend on the processing

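The calls of Il6ra, Osmr, Stat3, Socs3 (higher) and Lifr (lower) held in each of the 16 alternatives. Over all genes, 1091 were higher and 993 lower at an adjusted p below 0.01. At an adjusted p below 0.05 with an absolute log2 fold change above 1, 1068 were higher and 1000 lower. Leaving out a library gave 1290 to 1906 genes higher and 1146 to 1868 lower. With no filter on low counts 2 of the 10 genes were lower, Lifr and Cish. The labels do not say that replicate numbers pair the libraries. Deviations of same-numbered libraries from their group mean correlated at 0.30, -0.03 and 0.06. LPS replicate 1 was closest to control replicate 1, and LPS replicates 2 and 3 to control replicate 4. In groups this small the deviations depend on each other, so these values cannot settle whether the libraries were paired. With the replicate block 1647 genes were higher and 1587 lower, 5 and 1 of the 10 genes among them, Jak1 gained a call, Ebi3, Il11ra1 and Stat5a lost theirs, and the log2 fold change of Jak2 turned to 0.0666 (adjusted p of 0.848). Log2 fold changes that turned sign when a library was left out ran from -0.17 to 0.0518 for Jak2, -2.64 to 1.36 for Cish, -0.34 to 0.0429 for Dcn and -0.17 to 0.55 for Spp1, and Spp1 was -0.0405 with total counts. The cause was not tested. DESeq2 gave Cish no adjusted p. Of 616 values of single genes under the alternatives, 574 kept direction and side of the threshold, 24 lost the call, 7 gained it and 11 turned sign. LPS replicates 2 and 3 were more alike than other libraries of a group, with an SD of the log2 ratio of 0.10 over genes of high count, against 0.29 to 0.58 for the other pairs, yet they differed by more than sampling noise. Depth limits what can be said of Socs1, Il6, Osm and the other genes near 3 counts.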
